A study of Danio rerio with 24 samples.

Results

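The libraries described here are the 6 of 24 in the series that came from wild type zebrafish embryos exposed to ultraviolet B (UVB). They were chosen by genotype, treatment and time from the labels: 3 libraries were collected 24 h after exposure, at 48 h post fertilisation (hpf), and 3 were collected 5 h after exposure, at 29 hpf. Both groups are whole wild type embryos that received 450 J of UVB, for which the labels give no area, at 24 hpf, and both were reared in darkness at all other times, as were the mock embryos. Wild type mock embryos at 48 hpf (3 libraries) and 29 hpf (3 libraries) had no UVB and show the same interval of development. UVB embryos of the maternal eevs mutants (Meevs), whose mothers carried mutations in a gene of gadusol synthesis, were collected at the same stages, again with 3 libraries at each, and serve as a second setting for the change with time. PolyA RNA was sequenced with a directional kit and reads were counted per gene. Nothing in the labels ties replicates to separate clutches, and p-values therefore rest on how far these samples vary, which may be technical variation alone.

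Between these stages the zebrafish embryo passes through the pharyngula period and reaches the time of hatching. Somite formation in the tailbud is near or past its end, lens fibre cells fill with crystallins, retinal precursors leave the cell cycle and become neurons and photoreceptors, and muscle fibres take on their mature set of contractile proteins. The cartilage, fins, pigment cells, gut and liver also differentiate, the yolk is consumed, and the hatching gland releases its enzymes and is lost. UVB forms pyrimidine dimers in DNA, which stall RNA polymerase and activate the p53 pathway. In whole embryos, fewer cells of a type and less RNA per cell cannot be told apart, and this holds for every level below.

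Total counts in the 12 wild type libraries ran from 25278318 to 41702566. Of 23219 genes in the table, 22340 passed a filter on low counts and were tested. Levels are CPM, the counts scaled to a common library size, on TMM-scaled library sizes. A gene is said to have risen or fallen where edgeR's quasi-likelihood F-test gave a Benjamini-Hochberg adjusted p under 0.05 over all tested genes, and log2 fold changes are 48 over 29 hpf, ± SE. For each gene given below by its UVB libraries, those at 48 hpf did not overlap with those at 29 hpf, with the exception of nos1. Markers of skin (krt4, cyt1), muscle (acta1b, mylpfa), heart (myl7), neurons (elavl3), glia (gfap), lens (cryaa), blood (hbae3, hbbe1.1), vessels (kdrl), neutrophils (mpx), macrophages (mpeg1.1), pigment (dct), cartilage (col2a1a), hatching gland (he1.1), pronephros (cdh17), endoderm (foxa3), yolk (apoa2) and germ cells (ddx4) had counts in every UVB library, which goes with the label of whole embryos. The lowest was cryaa, with 14 counts in 1 library at 29 hpf. Of the 6 UVB libraries, 2 stood apart from their groups along the main axis of development. Replicate 1 at 48 hpf lay at 0.947 on a line on which the mean of the mock libraries was 0 at 29 hpf and 1 at 48 hpf, against 0.822 and 0.852 for the other 2 libraries. Replicate 3 at 29 hpf lay at -0.0214, against -0.128 and -0.0983. Each was the UVB library nearest the mock libraries of its stage on this line. Leaving both out therefore moves the UVB groups away from the mock groups by construction. Mock replicate 1 at 48 hpf lay at 1.04, against 0.935 and 0.947, and was left out only singly.

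In UVB embryos 7625 genes rose and 7689 fell between 29 and 48 hpf, which is 34.1% and 34.4% of the genes tested. At least 2-fold changes were less even, with 4061 rises and 1853 falls, and at least 4-fold changes less so again, with 1520 rises and 317 falls. The median over all tested genes was -0.01 on the log2 scale, the value beside which the medians of gene lists stand. Without both libraries that stood apart, 6942 genes rose and 6883 fell, and 4000 and 1881 of these changed at least 2-fold. In mock embryos 6749 genes rose and 7490 fell, 30.2% and 33.5% of those tested, with a median of -0.04. The mean position on the line between the mock groups was 0.874 ± 0.0649 for UVB libraries at 48 hpf and -0.0827 ± 0.0552 for UVB libraries at 29 hpf (SD, n = 3 each). Mock libraries, each placed on a line drawn without it, lay at 0.973 ± 0.0551 at 48 hpf and 0.0392 ± 0.0338 at 29 hpf (SD, n = 3 each). At 29 hpf all UVB libraries lay below all mock libraries. At 48 hpf replicate 1 of the UVB libraries, at 0.947, was level with 1 mock library and above another. For both stages the UVB values come from the line of all mock libraries, and each mock value from a line without that library. On lines without mock replicate 2 or 3 at 48 hpf, the UVB mean at 48 hpf was 0.854 or 0.858. An overlap of the groups at 48 hpf is therefore not shown by these values.

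**Figure D1:**
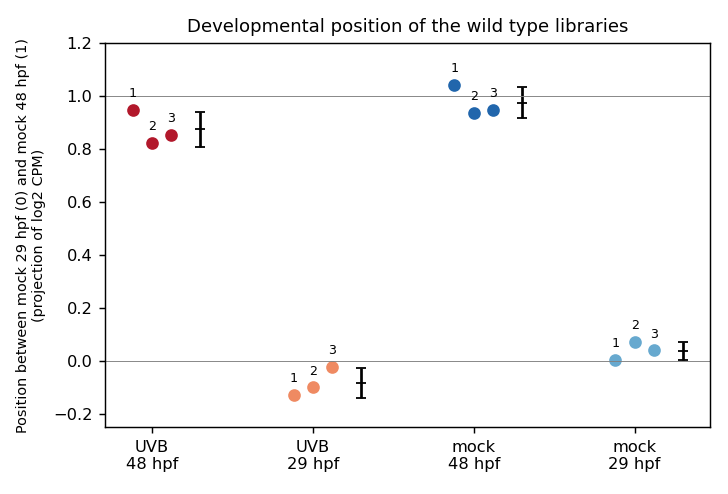
Position of each wild type library on the line from the mean of the mock libraries at 29 hpf (0) to that at 48 hpf (1), from log2 CPM of all tested genes. Each mock library was placed on a line drawn without it. Points are libraries with their replicate numbers, bars are mean ± SD (n = 3), and the UVB means are 0.874 at 48 hpf and -0.0827 at 29 hpf.

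Lens genes were the largest group among the leading rises. Of the 15 highest log2 fold changes, taken over named genes whose mean log2 CPM was 1 or more, 7 were gamma M crystallins, the short soluble proteins that fill fish lens fibres. The gene crygm2d2 (ENSDARG00000086917, chromosome 9, 22317479 to 22318511, GRCz11) stood at 87.5, 63.6 and 63.5 CPM at 48 hpf, against 0.771, 0.349 and 0.87 CPM at 29 hpf, a log2 fold change of 6.68 ± 0.21 (edgeR adjusted p = 6.4e-19). All 3 libraries at 48 hpf lay far above the 3 at 29 hpf, with replicate 1 the highest. The other 6 were crygm2d15 (8.27), crygm2d16 (7.49), crygm2d9 (6.44), crygm2d14 (6.20), crygm2d18 (5.76) and crygm2d5 (5.74). These genes are near-identical copies, so reads may be split among them and each single value is uncertain. The copy crygm2d11 had 0 counts in all libraries at 29 hpf and at least 107 at 48 hpf, at least 46.5-fold higher against a floor of 3 counts per library. Of the lens list, 49 rose and 2 fell of 55 tested, with a median log2 fold change of 3.84. The alpha crystallin and chaperone cryaa had 23.3, 12.6 and 19.3 CPM at 48 hpf, against 0.555, 0.489 and 0.588 CPM at 29 hpf (5.06 ± 0.38, edgeR adjusted p = 7.63e-12). The abundant crygn2 had 283, 193 and 255 CPM at 48 hpf, against 37.4, 27.9 and 40.3 CPM at 29 hpf (2.79 ± 0.19), and mipa, a water channel of fibre membranes, had 83.6, 62.9 and 88.4 CPM at 48 hpf, against 32, 36 and 40.4 CPM at 29 hpf (1.11 ± 0.17). The lens genes that fell were foxe3 (-1.82), a regulator of the lens epithelium, and gja8b (-0.94), a fibre connexin. The summed level of the lens genes was 3420 to 5180 CPM in the libraries at 48 hpf, against 551 to 764 CPM at 29 hpf.

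Photoreceptor genes rose as well, though unevenly. Of the list, 31 rose and 3 fell of 47 tested, with a median of 1.49. The homeobox gene crx (ENSDARG00000011989, chromosome 5, 36932718 to 36936443), which drives photoreceptor differentiation, had 117, 59.6 and 81 CPM at 48 hpf, against 1.08, 1.29 and 1.79 CPM at 29 hpf (5.92 ± 0.24, edgeR adjusted p = 5.82e-17). The regulator six7, needed for middle-wavelength cones in zebrafish, had 35.1, 21.4 and 24 CPM at 48 hpf, against 0.216, 0.105 and 0.212 CPM at 29 hpf (7.17 ± 0.26, edgeR adjusted p = 4.67e-18). The related homeobox gene otx5 (5.31) and nr2e3 (4.92), a nuclear receptor of the rod programme, followed. The opsins themselves were still low: rho, the rod opsin, reached 2.88 ± 0.998 CPM at 48 hpf and 0.0313 ± 0.0543 CPM at 29 hpf (SD, n = 3 each; 6.09 ± 0.56). The ultraviolet opsin opn1sw1 averaged 0.256 ± 0.152 CPM at 48 hpf and 0.0103 ± 0.0178 CPM at 29 hpf (SD, n = 3 each). The cone phosphodiesterase pde6c fell, with 1.31, 1.38 and 1.6 CPM at 48 hpf, against 9.07, 6.81 and 5.08 CPM at 29 hpf (-2.28 ± 0.21). Among retinal progenitor genes 16 rose and 6 fell of 27 tested. The progenitor homeobox gene rx1 (-1.56) fell, whereas atoh7, which specifies retinal ganglion cells, had 13.4, 21.5 and 20.8 CPM at 48 hpf, against 0.586, 0.629 and 1.06 CPM at 29 hpf (4.55 ± 0.22, edgeR adjusted p = 1.65e-15).

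**Figure D2:**
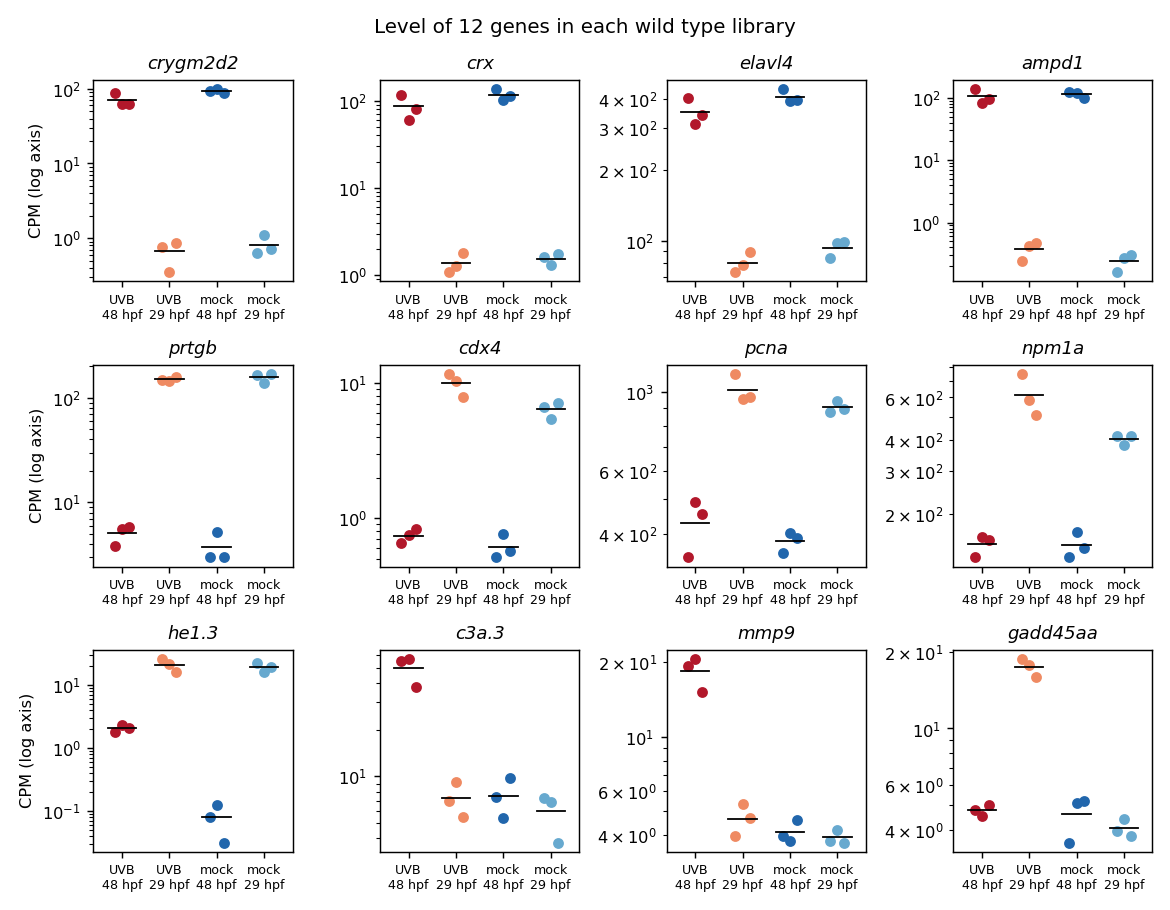
CPM (log axis) of 12 genes in each of the 12 wild type libraries. Points are libraries and lines are group means (n = 3); crygm2d2, crx, elavl4 and ampd1 were higher at 48 hpf in every UVB and mock library, prtgb, cdx4, pcna, npm1a and he1.3 were lower, and c3a.3, mmp9 and gadd45aa separated the UVB groups only.

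Neuronal genes had the highest share of rises of the 41 lists. Of the neuronal list, 92 rose and 1 fell of 97 tested, with a median of 1.69. The RNA-binding protein elavl4 of postmitotic neurons had 401, 313 and 340 CPM at 48 hpf, against 73.4, 78.8 and 89.8 CPM at 29 hpf (2.12 ± 0.10, edgeR adjusted p = 5.95e-16). The calcium sensor syt1a of synaptic vesicles was at 107, 88.6 and 96.8 CPM at 48 hpf, against 17.7, 18.4 and 22.2 CPM at 29 hpf (2.32 ± 0.12) and the SNARE protein snap25a at 134 ± 8.98 CPM at 48 hpf and 50.9 ± 7.14 CPM at 29 hpf (SD, n = 3 each; 1.39 ± 0.09). The largest rises in the list were stxbp1b (4.103), which serves vesicle fusion, nrgna (3.37), a calmodulin-binding protein, the glycine receptor subunit glra1 (3.29) and the calcium buffer calb2a (3.22). The kinase subunit camk2a (-0.61) was the 1 member that fell. Of the neural progenitor list 18 rose and 23 fell of 55 tested, with a median of -0.05, near the shares of all genes (34.1% and 34.4%). Without both libraries that stood apart 22 rose and 18 fell, with a median of 0.04. The progenitor factor sox3 had 122, 149 and 156 CPM at 48 hpf, against 272, 264 and 292 CPM at 29 hpf (-0.96 ± 0.08), and the Notch target her2 (-1.79) and the zinc finger gene zic2b (-1.77) fell more steeply. Among the rises were neurod6a (2.15), of the neuronal bHLH family, and ebf3a (2.27), a symbol that 2 identifiers share.

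Of the glial list 19 rose and 10 fell of 32 tested, beside 34.1% and 34.4% of all genes, so only its falls were near those shares. The radial glial fatty acid binding protein fabp7a had 396, 372 and 387 CPM at 48 hpf, against 111, 102 and 149 CPM at 29 hpf (1.67 ± 0.12), and olig1 (4.56), of the oligodendrocyte lineage, rose from a very low level. The intermediate filament gfap did not pass, at 211 ± 3.96 CPM at 48 hpf and 234 ± 18.2 CPM at 29 hpf (SD, n = 3 each; edgeR adjusted p = 0.119). The hindbrain and Schwann cell gene egr2b (-3.01) fell. In the inner ear list, 26 rose and 7 fell of 41 tested. The otolith matrix gene oc90 fell, with 7.02, 12.3 and 10.1 CPM at 48 hpf, against 83, 81 and 69 CPM at 29 hpf (-2.98 ± 0.15, edgeR adjusted p = 1.55e-15), whereas otofa, needed for hair cell synapses, had 10.9, 9.3 and 9.4 CPM at 48 hpf, against 2.5, 2.34 and 2.75 CPM at 29 hpf (1.95 ± 0.14). Of the pituitary and hypothalamus list 13 rose and 2 fell of 24 tested. The hormone precursor pomca averaged 1.13 ± 0.233 CPM at 48 hpf and 0.139 ± 0.0314 CPM at 29 hpf, and growth hormone gh1 averaged 0.259 ± 0.0836 CPM at 48 hpf and 0.0533 ± 0.0354 CPM at 29 hpf (SD, n = 3 each). Thyrotropin-releasing hormone, trh, fell, with 1.28, 1.01 and 0.798 CPM at 48 hpf, against 5.86, 5.55 and 4.68 CPM at 29 hpf (-2.36 ± 0.19).

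Of the skeletal muscle list 54 rose and 30 fell of 105 tested, with a median of 0.57. The muscle AMP deaminase ampd1 (ENSDARG00000033832, chromosome 8, 11080571 to 11112058) had 139, 83.3 and 96.2 CPM at 48 hpf, against 0.247, 0.419 and 0.47 CPM at 29 hpf (8.09 ± 0.27, edgeR adjusted p = 1.48e-18), the largest change outside the crystallins among the leading genes. Abundant members rose less: mylpfa, a fast myosin light chain, averaged 5030 ± 268 CPM at 48 hpf and 2550 ± 371 CPM at 29 hpf, and the creatine kinase ckma averaged 3840 ± 392 CPM at 48 hpf and 1450 ± 234 CPM at 29 hpf (SD, n = 3 each). Their log2 fold changes were 0.98 ± 0.11 and 1.403 ± 0.17. The fast troponin I gene tnni2b.2 (4.89) rose and tnni2b.1 (-3.29) fell, and the troponin T gene tnnt2c had 53, 54.5 and 49.5 CPM at 48 hpf, against 662, 656 and 607 CPM at 29 hpf (-3.62 ± 0.10, edgeR adjusted p = 1.17e-19). The kinase-like alpk3b fell, with 2.35, 2.5 and 1.92 CPM at 48 hpf, against 24.1, 27.9 and 25.5 CPM at 29 hpf (-3.51 ± 0.14). Chaperones of myosin folding fell too, namely hsp90aa1.1 (-2.70) and unc45b (-2.56). Of the myogenic regulators 1 rose and 14 fell of 23 tested. The fusion protein of myoblasts mymk had 4.65, 4.35 and 3.55 CPM at 48 hpf, against 41.9, 39.8 and 31.7 CPM at 29 hpf (-3.17 ± 0.13, edgeR adjusted p = 6.07e-17), and myog (-1.404) and myod1 (-1.08) also fell.

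Of the heart list 18 rose and 19 fell of 48 tested, shares near the 34.1% and 34.4% of all genes. The natriuretic peptide nppa had 18.5, 19.1 and 17.9 CPM at 48 hpf, against 4.9, 5.31 and 5.64 CPM at 29 hpf (1.80 ± 0.10), and the atrial myosin heavy chain myh6 had 8.43, 5.15 and 5.97 CPM at 48 hpf, against 12.5, 14.5 and 16.2 CPM at 29 hpf (-1.14 ± 0.18). In the erythroid list 18 rose and 21 fell of 47 tested. The embryonic alpha globin hbae3 averaged 2440 ± 208 CPM at 48 hpf and 778 ± 91.2 CPM at 29 hpf (SD, n = 3 each; 1.65 ± 0.13), and the beta globin hbbe2 rose by 2.31. The decarboxylase urod of heme synthesis had 17.5, 18.3 and 19.7 CPM at 48 hpf, against 109, 95 and 79.7 CPM at 29 hpf (-2.35 ± 0.10), and cpox (-1.77), the next enzyme, fell too. Globin genes are close paralogs whose reads may be split. Of the vessel list 16 rose and 13 fell of 48 tested, not far from the shares of all genes (34.1% and 34.4%), and 4 of these changed at least 2-fold. The endothelial cadherin cdh5 did not pass, at 48 ± 1.78 CPM at 48 hpf and 44.2 ± 2.71 CPM at 29 hpf (SD, n = 3 each, edgeR adjusted p = 0.149). Among leukocyte genes 24 rose and 11 fell of 47 tested. The neutrophil peroxidase mpx had 46.9, 39.5 and 40.1 CPM at 48 hpf, against 7.22, 8.07 and 9.87 CPM at 29 hpf (2.32 ± 0.13), lysozyme lyz had 17.2, 19.7 and 16.3 CPM at 48 hpf, against 2.87, 2.9 and 4.56 CPM at 29 hpf (2.33 ± 0.17), and the cathepsin ctss2.1 fell, with 8.77 ± 1.8 CPM at 48 hpf and 161 ± 55.7 CPM at 29 hpf (SD, n = 3 each; -4.204 ± 0.26).

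Epidermal genes were mostly on the rising side: 49 rose and 13 fell of 78 tested, with a median of 0.42. The hemidesmosomal collagen col17a1a had 137, 118 and 129 CPM at 48 hpf, against 2.04, 2.62 and 2.96 CPM at 29 hpf (5.64 ± 0.16, edgeR adjusted p = 2.67e-19), and its paralog col17a1b rose by 4.2. The keratin gene krt91 (3.47) rose and krt99 (-2.92) fell, krt5 had 1070, 1160 and 1280 CPM at 48 hpf, against 2120, 1630 and 1550 CPM at 29 hpf (-0.59 ± 0.16), and krt4 averaged 14200 ± 1210 CPM at 48 hpf and 10700 ± 751 CPM at 29 hpf (SD, n = 3 each; 0.40 ± 0.09). In the fin fold list 18 rose and 12 fell of 37 tested. The actinodin and1, which forms the actinotrichia that stiffen the fin fold, had 390, 410 and 406 CPM at 48 hpf, against 55.8, 58.8 and 83.4 CPM at 29 hpf (2.60 ± 0.12, edgeR adjusted p = 1.2e-15), with and2 (2.88) and and3 (3.44) beside it. Of the cartilage and bone list 47 rose and 11 fell of 71 tested, with a median of 0.93. The hypertrophic collagen col10a1a rose by 8.45 and the cartilage matrix protein matn1 by 4.96, while col2a1a was at 1010 ± 192 CPM at 48 hpf and 968 ± 126 CPM at 29 hpf (SD, n = 3 each; edgeR adjusted p = 0.706). Of the melanophore list 17 rose and 4 fell of 28 tested. The melanin enzyme tyrp1b had 304, 255 and 274 CPM at 48 hpf, against 89, 101 and 126 CPM at 29 hpf (1.398 ± 0.11). In the list for the other pigment cells 24 rose and 16 fell of 44 tested, and pnp4a, of purine synthesis in iridophores, rose, with 32.3 ± 2.04 CPM at 48 hpf and 17.9 ± 2.48 CPM at 29 hpf (SD, n = 3 each; 0.85 ± 0.10). Of the mucous cell list 7 rose and 1 fell of 10 tested, led by the mucin muc5.2 (4.80). In the ionocyte list 17 rose and 12 fell of 43 tested, not far from the shares of all genes (34.1% and 34.4%). Its rises were led by the sodium chloride cotransporter slc12a10.2 (4.31).

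Of the liver list 29 rose and 13 fell of 54 tested, of the pancreas list 12 rose and 2 fell of 24 tested, and of the intestine list 11 rose and 18 fell of 36 tested. Complement factor c3a.3 had 55.2, 56.7 and 37.3 CPM at 48 hpf, against 6.97, 9.18 and 5.5 CPM at 29 hpf (2.80 ± 0.21, edgeR adjusted p = 8.08e-12). This rise was seen after UVB only: it lay 2.48 above the mock change, and the mock libraries overlapped between the stages. The liver fatty acid binding protein fabp10a was barely read, at 0.148 ± 0.0517 CPM at 48 hpf and 0.0233 ± 0.0403 CPM at 29 hpf (SD, n = 3 each). Insulin, ins, had 7.86, 9.79 and 8.93 CPM at 48 hpf, against 4.84, 4.44 and 4 CPM at 29 hpf (1.005 ± 0.13). The intestinal fatty acid binding protein fabp2, which the yolk syncytial layer also expresses, fell, with 94.9, 119 and 108 CPM at 48 hpf, against 541, 361 and 289 CPM at 29 hpf (-1.89 ± 0.17, edgeR adjusted p = 3.47e-10). Of the yolk and lipoprotein list 8 rose and 15 fell of 33 tested. Apolipoprotein apoa1a did not pass, at 3170 ± 121 CPM at 48 hpf and 2980 ± 336 CPM at 29 hpf (SD, n = 3 each; edgeR adjusted p = 0.49), and apoeb fell, with 1150, 1540 and 1450 CPM at 48 hpf, against 2700, 2620 and 2350 CPM at 29 hpf (-0.89 ± 0.11). The antifreeze-like afp4, whose symbol 2 identifiers share, fell, with 34, 81.4 and 74 CPM at 48 hpf, against 753, 632 and 526 CPM at 29 hpf (-3.34 ± 0.23). In the kidney list 20 rose and 16 fell of 48 tested, beside 34.1% and 34.4% of all genes, and 11 rises and 6 falls were at least 2-fold. Both members given here moved in the less common direction. The pronephric cadherin cdh17 had 54.8, 60 and 53.9 CPM at 48 hpf, against 121, 138 and 124 CPM at 29 hpf (-1.18 ± 0.11), and slc12a1 (-2.46), a chloride transporter of the distal pronephros, fell as well. Of the germ cell list 2 rose and 9 fell of 17 tested, with ddx4, the vasa helicase, at 2.85, 3.08 and 3.43 CPM at 48 hpf, against 5.43, 3.98 and 5.9 CPM at 29 hpf (-0.72 ± 0.19).

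**Figure D3:**
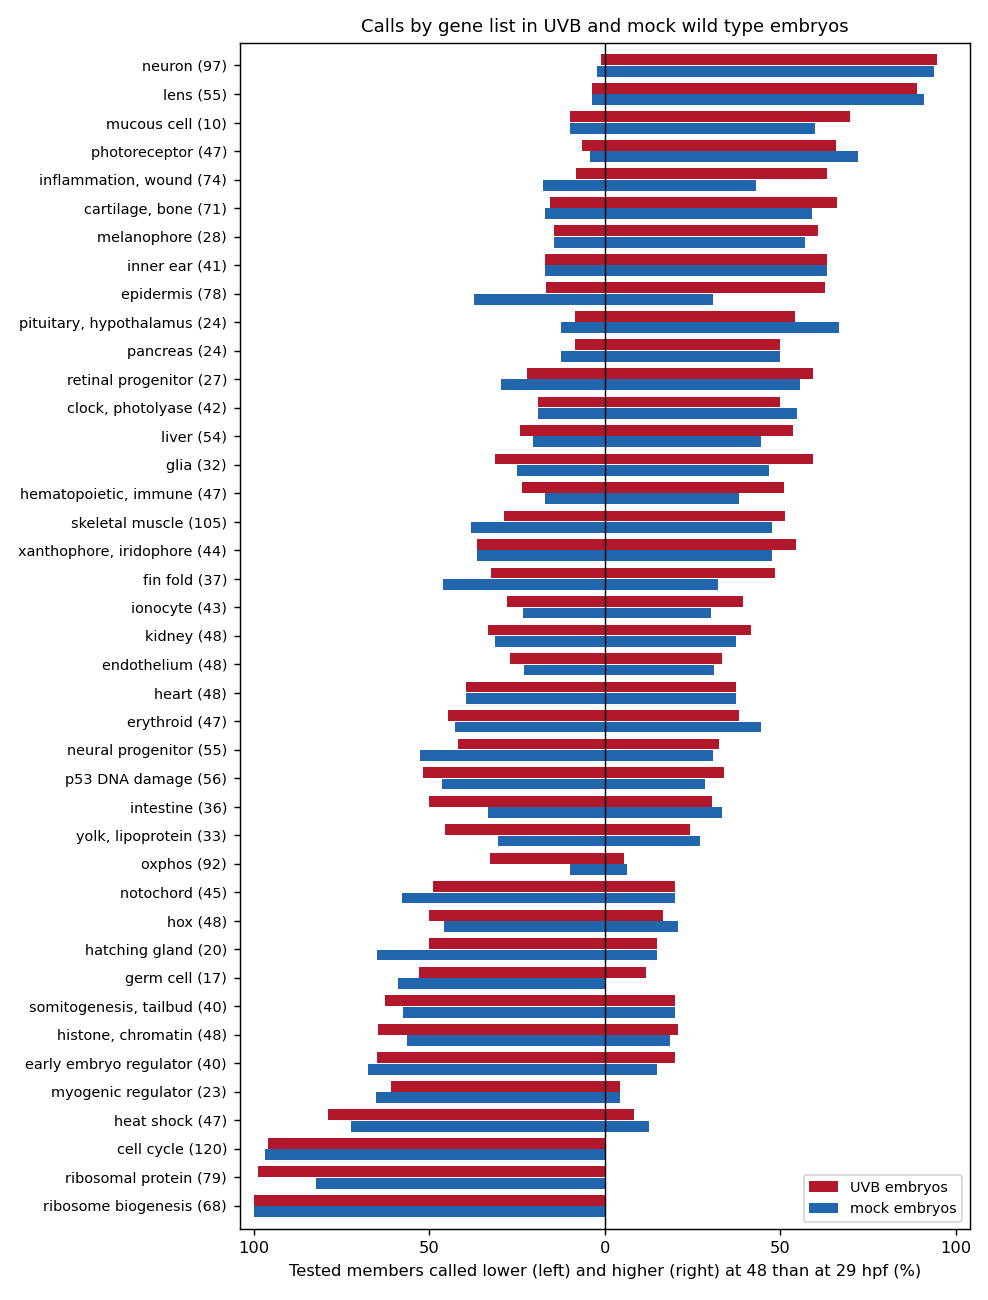
Share of tested members of each of 41 gene lists called lower (left) and higher (right) at 48 than at 29 hpf, in UVB embryos (upper bar) and mock embryos (lower bar); the number tested is in brackets. Neuron and lens genes lie on the right and ribosome biogenesis, ribosomal protein and cell cycle genes on the left under both treatments, and the epidermis bars differ most.

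Falls were ranked as the rises were, over named genes with a mean log2 CPM of 1 or more. Clone or locus placeholders were left out of both rankings. Without that condition they made 5 of the 15 lowest and 1 of the 15 highest. The leading gene was prtgb (ENSDARG00000040442, chromosome 25, 418932 to 463592), a protogenin of the immunoglobulin superfamily, at 3.84, 5.56 and 5.88 CPM at 48 hpf, against 147, 145 and 159 CPM at 29 hpf (-4.89 ± 0.18, edgeR adjusted p = 5.53e-18). The cathepsin ctsll followed with 2.82, 1.44 and 3.43 CPM at 48 hpf, against 67.9, 68.2 and 69.6 CPM at 29 hpf (-4.74 ± 0.20), and wfikkn1, a secreted protease inhibitor that binds myostatin in mammals, had 0.392, 0.576 and 0.71 CPM at 48 hpf, against 11.6, 12.4 and 9.47 CPM at 29 hpf (-4.32 ± 0.18). The posterior homeobox gene cdx4 had 0.653, 0.748 and 0.828 CPM at 48 hpf, against 11.7, 10.4 and 7.87 CPM at 29 hpf (-3.74 ± 0.18, edgeR adjusted p = 1.69e-15). Also among the 15 lowest were the endothelin receptor ednrab (-3.70) of neural crest cells, the cytochrome cyp4t8 (-4.23), the bile salt transporter abcb11a (-3.72), the complement gene c7b (-3.71) and METTL21C (-3.77), named after a lysine methyltransferase. For abcb11a and c7b, replicate 3 was the lowest of the libraries at 29 hpf, at 15.8 and 6.98 CPM, and still above every library at 48 hpf. Of the somitogenesis and tailbud list 8 rose and 25 fell of 40 tested. The segmentation clock genes her1 (0.0567 ± 0.0767 CPM at 48 hpf and 2.14 ± 0.66 CPM at 29 hpf, SD, n = 3 each; -5.14 ± 0.49) and her7 (-2.67) fell, and so did msgn1 (-3.97), mespaa (-3.95) and tbx16 (-2.10), which act in presomitic mesoderm. Of the early embryo regulators 8 rose and 26 fell of 40 tested: the RNA-binding repressor of let-7 lin28a had 18.5, 24.4 and 24.7 CPM at 48 hpf, against 128, 126 and 114 CPM at 29 hpf (-2.45 ± 0.10), and sall4 (-1.54) and pou5f3 (-1.16), of the pluripotency network, fell. In the notochord list 9 rose and 22 fell of 45 tested, with tbxta (-1.39) falling, and of the Hox genes 8 rose and 24 fell of 48 tested.

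Growth and division genes fell together. Of the cell cycle list, 0 rose and 115 fell of 120 tested, with a median of -0.80. The replication clamp pcna had 344, 492 and 456 CPM at 48 hpf, against 1120, 956 and 965 CPM at 29 hpf (-1.24 ± 0.10, edgeR adjusted p = 1.4e-11), and mki67, a marker of dividing cells, had 632, 789 and 712 CPM at 48 hpf, against 1120, 1090 and 1190 CPM at 29 hpf (-0.67 ± 0.07). The licensing factor mcm10 (-1.57) and geminin, gmnn (-1.54), were among the steepest. Of the ribosome biogenesis list, 0 rose and 68 fell of 68 tested, with a median of -1.50. Nucleophosmin, npm1a, had 133, 160 and 155 CPM at 48 hpf, against 749, 585 and 506 CPM at 29 hpf (-2.04 ± 0.11, edgeR adjusted p = 9.66e-15), and the rRNA methyltransferase fibrillarin, fbl, had 98.2, 113 and 111 CPM at 48 hpf, against 440, 340 and 311 CPM at 29 hpf (-1.76 ± 0.10). Ribosomal protein genes fell by less: 0 rose and 78 fell of 79 tested, with a median of -0.44 and rps6 at 1370, 1530 and 1540 CPM at 48 hpf, against 2290, 1810 and 1960 CPM at 29 hpf (-0.45 ± 0.09). Of the histone and chromatin list 10 rose and 31 fell of 48 tested. In the list for oxidative phosphorylation 5 rose and 30 fell of 92 tested, beside 34.1% and 34.4% of all genes. Its falls were thus near the share of all genes, and 57 members were not called. The fall of the cytochrome oxidase subunit cox4i1 (-0.21) was lost in most alternatives. The 30 falls of that list were 17 without both libraries that stood apart, and between 19 and 40 when single libraries were left out (19 without replicate 1 or 2 at 48 hpf, 20 without replicate 1 at 29 hpf).

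Most heat shock genes fell. Of the heat shock list 4 rose and 37 fell of 47 tested, with a median of -0.69. The small heat shock protein hspb1 changed by -2.73 (log2). The stress-inducible hsp70l rose by 1.12 ± 0.39, but by 0.37 without both libraries that stood apart, where its edgeR adjusted p was 0.48. Of the p53 and DNA damage list 19 rose and 29 fell of 56 tested, beside 34.1% and 34.4% of all genes. The growth arrest gene gadd45aa (ENSDARG00000043581, chromosome 2, 10280645 to 10284572) had 4.8, 4.55 and 5 CPM at 48 hpf, against 18.7, 17.8 and 15.9 CPM at 29 hpf (-1.86 ± 0.12, edgeR adjusted p = 7.21e-13), the cell cycle inhibitor cdkn1a had 6.48, 7.63 and 8.54 CPM at 48 hpf, against 23.3, 23.6 and 23.6 CPM at 29 hpf (-1.64 ± 0.14), and mdm2, which degrades p53, averaged 60.5 ± 3.88 CPM at 48 hpf and 136 ± 16.8 CPM at 29 hpf (SD, n = 3 each; -1.16 ± 0.09). The difference from the mock change passed for gadd45aa and for mdm2, which lost the call in some alternatives, and did not pass for cdkn1a. Among clock genes and photolyases 21 rose and 8 fell of 42 tested. The light-induced repair and clock genes cry5 (-2.10), cry-dash (-1.32) and per2 (-0.90) fell, whereas the largest rises of the list were in nuclear receptor genes of the clock, roraa (2.56), nr1d4b (2.48) and nr1d2a (2.26). The difference from the mock change did not pass for cry5, cry-dash or per2. In this list the UVB change was 0 above and 4 below the mock change of 42 tested, beside 3.26% and 1.62% of all genes. Of the inflammation and wound list 47 rose and 6 fell of 74 tested, with a median of 0.65. The collagenase mmp9 (ENSDARG00000042816, chromosome 8, 24281512 to 24295947) had 19.4, 20.6 and 15.2 CPM at 48 hpf, against 3.95, 5.31 and 4.7 CPM at 29 hpf (1.99 ± 0.14, edgeR adjusted p = 1.89e-12), and the cytokine inhibitor socs3a had 8.49, 8.26 and 7.07 CPM at 48 hpf, against 1.79, 1.64 and 1.76 CPM at 29 hpf (2.19 ± 0.15).

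The change with time in UVB embryos resembled that in mock embryos across genes. The comparisons share no library, and their log2 fold changes correlated with a Pearson r of 0.905 and a Spearman rho of 0.889 across 22340 genes, which are not independent replicates. Both comparisons called 6002 genes higher and 6357 lower, and 137 were called in opposite directions. Of the calls in UVB embryos 80.7% were made in the same direction in mock embryos, and of the mock calls 86.8% were made in UVB embryos. The lens list, in which 50 rose and 2 fell in mock embryos (median 3.85), the neuronal list (91 rose and 2 fell, median 1.73) and the cell cycle list (0 rose and 116 fell, median -0.93) had counts within 2 genes of those in UVB embryos. In mock embryos crx had 136, 102 and 114 CPM at 48 hpf, against 1.63, 1.3 and 1.73 CPM at 29 hpf (6.23 ± 0.24), ampd1 had 122, 118 and 101 CPM at 48 hpf, against 0.16, 0.273 and 0.301 CPM at 29 hpf (8.86 ± 0.29), and prtgb had 2.98, 5.24 and 2.98 CPM at 48 hpf, against 167, 139 and 169 CPM at 29 hpf (-5.42 ± 0.18). The differences from the UVB change did not pass for these 3 genes, at -0.32 ± 0.40, -0.77 ± 0.68 and 0.52 ± 0.25.

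**Figure D4:**
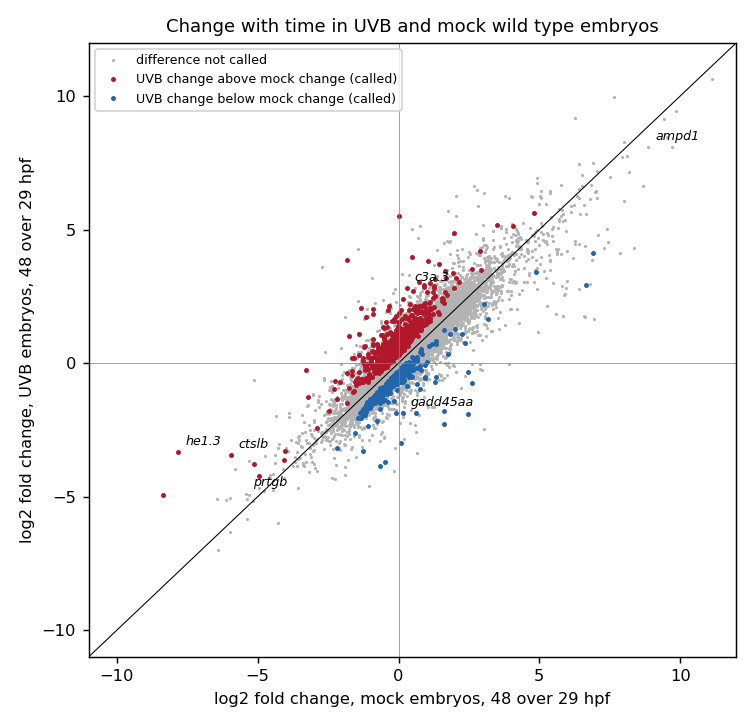
Log2 fold change (48 over 29 hpf) of 22340 genes in UVB embryos (vertical) and mock embryos (horizontal). Coloured points are the 729 genes whose change was higher in UVB than in mock embryos and the 363 whose change was lower; the line marks equal change, and most genes lie along it (Pearson r = 0.905).

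The 2 time courses were compared directly by testing the UVB change minus the mock change. The difference passed for 1092 genes, 729 above 0 and 363 below it, which is 3.26% and 1.62% of the genes tested, with a median over all genes of 0.00407. With DESeq2 size factors in edgeR the split was 658 and 489, and with the DESeq2 Wald test it was 808 and 703. When single libraries were left out, the count below 0 lay between 141 and 579 and the count above 0 between 516 and 853. The count below 0 was 579 without replicate 3 of the UVB libraries at 29 hpf, 228 and 241 without replicates 1 and 3 of the UVB libraries at 48 hpf, 236 without replicate 2 of the UVB libraries at 29 hpf, and 186 without replicate 3 of the mock libraries at 29 hpf. It was 166, beside 516 above 0, without replicate 1 of the UVB libraries at 29 hpf, and 141, beside 534 above 0, without replicate 2 of the mock libraries at 48 hpf. The total was 1134 without both UVB libraries that stood apart, which were those nearest the mock libraries. Of the 1092 genes, 453 changed in the same direction under both treatments, 353 passed in UVB embryos alone, 149 in mock embryos alone, and 137 in opposite directions. Of 41 named genes that passed, 16 lost the call in at least 1 alternative, and mpx and npm1a, described below, are among these.

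Epidermal genes made the largest group of these differences. Of 2127 symbols in the lists, 95 stood in more than 1 list, so a gene can count in several groups. In the epidermal list the UVB change was 36 above and 1 below the mock change of 78 tested, with a median difference of 0.41, whereas 24 rose and 29 fell in mock embryos (median -0.05). The summed level of the list was 26600 to 29700 CPM in UVB embryos and 32700 to 34100 CPM in mock embryos at 48 hpf. At 29 hpf it was 20500 to 23900 CPM in UVB embryos and 25900 to 27600 CPM in mock embryos. The sum was thus higher at 48 hpf under both treatments, and in UVB embryos krt4, given above, made up much of it. It does not show the difference seen in the counts of genes. In UVB embryos col17a1b had 27, 27.4 and 25.8 CPM at 48 hpf, against 1.02, 1.26 and 1.95 CPM at 29 hpf. In mock embryos it had 25.2, 20.9 and 23.5 CPM at 48 hpf, against 3.23, 3.28 and 2.82 CPM at 29 hpf, which gave a difference of 1.304 ± 0.21 (edgeR adjusted p = 0.000224). In the fin fold list the change was 7 above and 0 below the mock change of 37 tested, beside 3.26% and 1.62% of all genes. In UVB embryos the Fraser complex gene fras1 had 117, 122 and 119 CPM at 48 hpf, against 107, 115 and 106 CPM at 29 hpf. In mock embryos it had 110, 106 and 103 CPM at 48 hpf, against 184, 160 and 171 CPM at 29 hpf, a difference of 0.82 ± 0.14. In the cartilage and bone list 13 above and 1 below were counted of 71. The 13 were 7 without replicate 1 of the UVB or of the mock libraries at 29 hpf and 8 without replicate 2 or replicate 3 of the mock libraries at 48 hpf.

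Inflammation and wound genes showed 16 above and 0 below the mock change of 74 tested, with a median difference of 0.36. In mock embryos mmp9 had 3.95, 3.78 and 4.59 CPM at 48 hpf, against 3.78, 4.2 and 3.72 CPM at 29 hpf, so that only the UVB libraries at 48 hpf were high, and the difference was 1.91 ± 0.22 (edgeR adjusted p = 3.36e-06). Complement c3a.3 had 7.34, 5.4 and 9.76 CPM at 48 hpf, against 7.24, 6.9 and 3.76 CPM at 29 hpf in mock embryos and a difference of 2.48 ± 0.32 (edgeR adjusted p = 1.49e-05). The cytokine inhibitor socs3a differed by 1.28 ± 0.24 (edgeR adjusted p = 0.00156). Of 47 leukocyte genes the change was 6 above and 0 below the mock change, beside 3.26% and 1.62% of all genes. For mpx, which had 25.9, 28.9 and 29.3 CPM at 48 hpf, against 9.09, 11.6 and 7.97 CPM at 29 hpf in mock embryos, the difference was 0.77 ± 0.18 (edgeR adjusted p = 0.00987). The summed level of the leukocyte list at 48 hpf was 1540 to 1920 CPM in UVB embryos and 1300 to 1580 CPM in mock embryos. At 29 hpf it was 2660 to 3140 CPM in UVB embryos and 2230 to 2750 CPM in mock embryos, with mpx and mpeg1.1 above 0 in every library, and its part in the other differences was not tested. In UVB embryos the receptor-like gene fgfr1bl, a symbol of 2 identifiers, had 10.5, 9.79 and 8.96 CPM at 48 hpf, against 2.16, 2.27 and 2.96 CPM at 29 hpf. In mock embryos it had 2.96, 2.64 and 3.42 CPM at 48 hpf, against 3.81, 4.3 and 3.61 CPM at 29 hpf (2.35 ± 0.20, edgeR adjusted p = 6.58e-08). The S100 gene s100w (1.81 ± 0.21), the phospholipid flippase atp10b (1.91 ± 0.20) and cemip (1.66 ± 0.23), which degrades hyaluronan in mammals, followed among the 10 highest.

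Of the hatching gland list 3 rose and 10 fell of 20 tested in UVB embryos, beside 34.1% and 34.4% of all genes. The change was 3 above and 0 below the mock change, beside 3.26% and 1.62% of all genes. The hatching enzyme he1.3 (ENSDARG00000022670, chromosome 22, 14102397 to 14103633), which softens the chorion, fell under both treatments and by less after UVB. In UVB embryos it had 1.78, 2.33 and 2.1 CPM at 48 hpf, against 25.6, 21.2 and 16 CPM at 29 hpf (-3.34 ± 0.20). In mock embryos it had 0.0806, 0.127 and 0.0317 CPM at 48 hpf, against 22.3, 16.1 and 18.9 CPM at 29 hpf (-7.83 ± 0.33), and the difference of 4.49 ± 0.50 was the largest of the named genes (edgeR adjusted p = 2.61e-06). The mock libraries at 48 hpf had 1 to 4 counts of he1.3, so the mock fold rests on very few reads. The libraries at 29 hpf overlapped between treatments, and at 48 hpf every UVB library lay above every mock library. In UVB embryos the cathepsin ctslb (ENSDARG00000039173), 1 of 4 identifiers with that symbol, had 5.2, 8.52 and 6.59 CPM at 48 hpf, against 93.1, 67.8 and 59.6 CPM at 29 hpf. In mock embryos it had 0.806, 1.11 and 1.74 CPM at 48 hpf, against 84.9, 75.7 and 62.1 CPM at 29 hpf (2.502 ± 0.38, edgeR adjusted p = 0.000153). For another identifier with the symbol ctslb, the UVB change of -1.87 did not pass (edgeR adjusted p = 0.0691), nor did its difference from the mock change. The abundant he1.1 (-2.09 in UVB embryos and -2.21 in mock embryos) and he1.2 (-2.49 in UVB embryos and -3.16 in mock embryos) did not pass the test of the difference. In UVB embryos the nitric oxide synthase nos1 had 32.2, 42.1 and 43.5 CPM at 48 hpf, against 38.2, 32.4 and 31.6 CPM at 29 hpf, and the stages overlapped. In mock embryos it had 29.6, 26.7 and 23.5 CPM at 48 hpf, against 99.1, 63.3 and 74.9 CPM at 29 hpf, a difference of 1.77 ± 0.25, and the finTRIM gene ftr14l differed by 1.70 ± 0.22.

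Below the mock change, ribosome biogenesis was the largest group, with 0 above and 25 below of 68 tested and a median difference of -0.38. In mock embryos 0 rose and 68 fell, with a median of -1.10. The count of 25 ranged between 7 and 43 when single libraries were left out and was 28 without both UVB libraries that stood apart. It was 7 without replicate 1 of the UVB libraries at 29 hpf or replicate 2 of the mock libraries at 48 hpf, 10 without replicate 1 of the UVB libraries at 48 hpf, 13 and 15 without replicates 2 and 3 of the mock libraries at 29 hpf, and 43 without replicate 3 of the UVB libraries at 29 hpf. For npm1a the mock libraries had 132, 168 and 145 CPM at 48 hpf, against 416, 382 and 416 CPM at 29 hpf, so the UVB libraries were the higher ones at 29 hpf and the groups overlapped at 48 hpf (-0.59 ± 0.15, edgeR adjusted p = 0.0192). Of 47 heat shock genes the change was 0 above and 10 below the mock change, among the latter hsp90aa1.2 (-0.88 ± 0.15). The shares of all genes were 3.26% above and 1.62% below. Among p53 and DNA damage genes the difference was largest for gadd45aa, which had 3.57, 5.08 and 5.2 CPM at 48 hpf, against 3.97, 4.41 and 3.8 CPM at 29 hpf in mock embryos (-2.04 ± 0.19, edgeR adjusted p = 2.56e-07). Its UVB libraries were high at 29 hpf alone. The myoblast fusion gene mymk (-0.99 ± 0.18, edgeR adjusted p = 0.00113), trh (-1.26 ± 0.27), the notochord matrix gene emilin3a (-0.99 ± 0.22), the cytokine signalling inhibitor cish (-0.97 ± 0.19) and the calcium-binding efhd1 (-1.03 ± 0.20) were also among the 10 lowest. Both rankings of 10 cover genes with a mean log2 CPM of 1 or more whose symbol is not a clone or locus placeholder. Without the condition on symbols, placeholders made 4 of the 10 highest and 5 of the 10 lowest. For cish and efhd1 the UVB change itself did not pass (edgeR adjusted p of 0.823 and 0.639).

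Medians were higher in classes of longer genes. The median log2 fold change in UVB embryos was -0.18 for 7853 tested genes with a span of up to 10 kb from start to end, -0.02 for 10399 genes of 10 to 50 kb, 0.24 for 2421 of 50 to 100 kb, 0.48 for 1195 of 100 to 200 kb and 0.95 for 472 of over 200 kb. Of the 472 genes in the longest class 336 rose and 39 fell, where 34.1% and 34.4% of all tested genes did. The mock medians ran from -0.15 in the shortest to 0.70 in the longest class, so the same order held without UVB. The median difference between UVB and mock ran from -0.04 to 0.20. In the longest class 38 of 472 genes lay above and 0 below the mock change by edgeR. The class of 100 to 200 kb had 81 above and 1 below of 1195. Over all tested genes 3.26% lay above and 1.62% below.

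**Figure D5:**
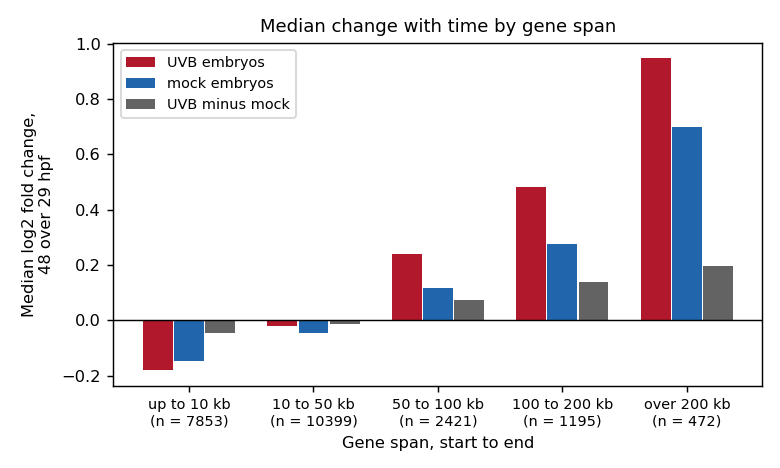
Median log2 fold change (48 over 29 hpf) of tested genes by gene span, for UVB embryos, mock embryos and the difference UVB minus mock; the number of genes is under each class. The UVB median runs from -0.18 in the shortest class to 0.95 in the longest, and the difference from -0.04 to 0.20.

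The change with time in wild type UVB embryos was also set against that in Meevs UVB embryos. The difference passed for 3070 genes, 1471 above 0 (6.58%) and 1599 below it (7.16%), with a median over all genes of 0.01. Genotype coincides with the library series in the descriptions, so the 2 cannot be told apart. The UVB libraries of Meevs lay at 0.744, 0.714 and 0.789 at 48 hpf on the line of the wild type mock groups. At 29 hpf they lay at -0.0848, -0.0621 and -0.0786. Meevs mock libraries at 48 hpf also lay below 1 on this line, at 0.902, 0.924 and 0.896. Lens genes were 23 above and 0 below of 55, with a median difference of 0.89, and neuronal genes 28 above and 3 below of 97. For crygm2d14, wild type averaged 36.9 ± 5.64 CPM at 48 hpf and 0.465 ± 0.294 CPM at 29 hpf, and Meevs averaged 53.6 ± 9.43 CPM at 48 hpf and 2.85 ± 0.19 CPM at 29 hpf (SD, n = 3 each; 1.98 ± 0.48, edgeR adjusted p = 0.00642). Inflammation and wound genes were 2 above and 37 below of 74 (median -0.65). Of the named genes the difference was largest for c7b, which averaged 0.915 ± 0.0547 CPM at 48 hpf and 12.2 ± 4.6 CPM at 29 hpf in wild type and 9.29 ± 6.27 CPM at 48 hpf and 7.2 ± 0.962 CPM at 29 hpf in Meevs (SD, n = 3 each; -4.09 ± 0.49, edgeR adjusted p = 4.17e-06). The gluconeogenic enzyme pck1 rose in wild type, at 29.6, 16.2 and 17.6 CPM at 48 hpf, against 6.08, 6.98 and 9.24 CPM at 29 hpf, and its difference from Meevs was -3.25 ± 0.47. The thrombospondin thbs4a had the highest difference (2.92 ± 0.27, edgeR adjusted p = 1.08e-07). The count above 0 was 776 without replicate 2, 852 without replicate 3 and 967 without replicate 1 of the Meevs libraries at 29 hpf, and 785 without replicate 2 of those at 48 hpf.

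In the authors' deposited table for the same libraries, whose fold changes run the other way (5 h over 24 h after exposure), 15356 genes passed, of which 7582 were lower at 5 h and 7774 higher. With the sign of the authors' deposited table turned, it shares the direction and the call of 98.55% of the UVB changes given above.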

How the data were processed

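PolyA RNA of whole embryos was sequenced from 24 libraries in 8 groups of 3. Reads were aligned with STAR 2.7.9a on GRCz11 after cutadapt 1.16, then featureCounts 1.6.3, with DESeq2 1.36.0 for the authors' comparisons, per the submitters' processing notes. Whether counting used strand is not stated. The authors deposited raw counts per gene, and tables of log2 fold changes and p-values of their own comparisons, of which 1 is quoted. From the counts, edgeR 4.0.16 (limma 3.58.1, R 4.3.3) was run with TMM scaling, filterByExpr, 1 mean per group over all 24 libraries (16 residual degrees of freedom), the quasi-likelihood F-test and Benjamini-Hochberg adjustment over 22340 genes. The procedure was also run on simulated counts in which few genes changed. In these data most genes changed with time, so that run does not show its error rate here. CPM levels carry counting error set by total counts between 25278318 and 41702566 in the wild type libraries, and no pair of replicates agreed within sampling noise. Alternatives were DESeq2 1.42.0, its size factors, no filter on low counts, the compared libraries alone, a replicate block, glmTreat, and leaving libraries out.

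Members and gene lists were chosen with earlier results of these data known. Named genes were the 15 highest and 15 lowest UVB changes, the 10 at each end of UVB minus mock and the 5 at each end of wild type minus Meevs (called, mean log2 CPM of at least 1, symbol not a placeholder; non-overlapping libraries for the first), with key members and up to 4 called members per list. The placeholder pattern was widened by NC_ identifiers after the values were seen, which removed 1 gene. Also chosen after their values were seen were camk2a, cpox, foxe3, gja8b, krt99, nr2e3, pde6c, tnni2b.1, unc45b and zic2b. Genes whose symbols or sequences repeat may share reads.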

Additional observations from a re-analysis of the deposited data

Results flagged for a closer look

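The change with time differed between UVB and mock embryos, by a test of the difference itself in edgeR, for 1092 genes, and between UVB embryos of wild type and Meevs for 3070 genes. The named genes among them are given here with the difference of the log2 fold changes in brackets.

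Above the mock change lay col17a1a (0.82), cyp4t8 (0.73), METTL21C (1.361), tnnt2c (0.47), ctslb (2.502), he1.3 (4.49), c3a.3 (2.48), fgfr1bl (2.35), mmp9 (1.91), atp10b (1.91), s100w (1.81) and nos1 (1.77). Further genes above it were ftr14l (1.70), cemip (1.66), thbs4a (1.14), mpx (0.77), lgals9l1 (1.81), col17a1b (1.304), atp1a1a.2 (0.52), agr2 (0.54), fras1 (0.82), gch2 (0.51), lin28a (0.46) and socs3a (1.28). Below the mock change lay gadd45aa (-2.04), apoa4b.2 (-1.49), mylipb (-1.44), trh (-1.26), hspb9 (-1.24), MFAP4 (-1.06), efhd1 (-1.03), mymk (-0.99), emilin3a (-0.99), cish (-0.97), myog (-0.83), npm1a (-0.59), tsr1 (-0.47), nip7 (-0.65), mdm2 (-0.50), hsp90aa1.2 (-0.88) and ezh2 (-0.36). Of these, METTL21C, MFAP4, apoa4b.2, col17a1a, cyp4t8, ezh2, gch2, hspb9, lgals9l1, lin28a, mdm2, mpx, mylipb, npm1a, tnnt2c and tsr1 lost the call in at least 1 alternative.

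In wild type minus Meevs UVB embryos, the genes above 0 were crygm2d14 (1.98), thbs4a (2.92), and3 (2.15), igsf10 (1.98) and duox (1.87), and those below 0 were c7b (-4.09), hspb9 (-2.54), pck1 (-3.25), hspb11 (-3.23) and fkbp5 (-2.72). The call of fkbp5 was lost in at least 1 alternative.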

How the results depend on the processing

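The count of UVB changes lay between 13825 and 15504 under all alternatives. The count at least 2-fold was 3717 (2774 higher, 943 lower) when edgeR's glmTreat tested against that size, in place of 5914. The count of UVB minus mock differences was 675 to 1432 when 1 library was left out, lowest without replicate 2 of the mock libraries at 48 hpf (675) or replicate 1 of the UVB libraries at 29 hpf (682), and 1511 by DESeq2. The cause was not tested. Same-numbered libraries correlated between -0.117 and 0.107 after group means were taken out. That step also removes what all replicates share, so these values cannot tell whether replicates came from separate clutches. With a replicate block the counts were 15110 for UVB, 827 for UVB minus mock and 2567 for wild type minus Meevs.

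Of 82 counts over gene lists, 4 moved by over 1.5 times in the UVB change and 42 in the UVB minus mock difference, 3 and 30 of them by at most 2 genes. Oxidative phosphorylation genes that fell in UVB embryos numbered 30 of 92, near the share of all genes (34.4%). They numbered 17 without both libraries that stood apart and 19 to 40 when 1 was left out. Larger moves in the difference without both libraries that stood apart were neural progenitor genes above it (10 against 0), cell cycle genes above it (11 against 4), liver genes above it (5 against 8), ionocyte genes above it (6 against 3) and intestine genes below it (5 against 2). Both libraries were the UVB ones nearest the mock groups, so that setting moves UVB and mock further apart by construction. Ribosome biogenesis genes below it numbered 16 with the compared libraries alone, 14 with the replicate block and 7 to 43 when 1 library was left out. Cartilage genes above it numbered 8 with the block and 7 to 13 when 1 library was left out.

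Of the 296 named genes, 272 kept the direction and side of the threshold of the UVB change in every alternative, as did 25 of 41 for UVB minus mock and 9 of 10 for wild type minus Meevs. The changes that turned their sign had not passed the test: efhd1 (-0.25 to 0.21 when 1 library was left out), cish (-0.13 without both libraries that stood apart, -0.073 to 0.22 when 1 was left out), col2a1a (-0.14, and -0.10 to 0.17), ela2 (0.12), hoxa13b (-0.051) and mt-co1 (-0.0068 to 0.043). Depth limits opsins and hormones near 1 CPM or below.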
